A study of Mus musculus with 24 samples.

Results

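Mammary glands of aged mice that carry an inducible Esr1 transgene were compared after tamoxifen and without it, with 3 mice in each group, which makes 6 of the 24 samples of the series. The 6 were taken by their labels, as the tamoxifen and the untreated samples of the Esr1 line at 20 months of age. Every mouse of this line carried MMTV-rtTA and tet-op-Esr1, so that the transgene depends on an activator under the MMTV promoter, which is active mainly in mammary epithelium, and all 6 had 8 months of induction. The tamoxifen mice carried a subcutaneous pellet with 25 mg of the drug, released over 60 days, for the last 2 months. The untreated mice have no drug in their labels, but their sample descriptions carry a tag, PLA, that the labels do not explain, so whether they had an empty pellet is not known here. Other groups are used only beside this comparison. These are 3 letrozole mice of the same line, age and induction with a pellet of 2.5 mg over 60 days, 3 untreated Esr1 mice of 18 months after 6 months of induction, and 3 tamoxifen and 3 untreated mice of 20 months with MMTV-rtTA and a tet-op-CYP19A1 transgene. Glands free of either transgene are not analysed here, so each group is set only against transgenic glands. The series asks how these drugs act on the gland during reproductive senescence under either transgene.

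Oestrogen receptor alpha, the protein of Esr1, is a nuclear receptor that oestradiol binds and that then changes transcription of its target genes. In the mammary gland it is found in hormone-sensing luminal cells, which answer oestrogen by making progesterone receptor and, with progesterone, send signals such as RANK ligand (Tnfsf11) to neighbouring cells that then divide or form milk-producing alveoli. R-spondin 1 (Rspo1) is a further local signal that these hormones raise in mouse mammary luminal cells. Tamoxifen binds the same receptor and blocks it in breast epithelium, while it acts as an agonist in some other tissues. Letrozole blocks aromatase, the enzyme that makes oestrogens from androgens.

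The gene of the labelled transgene did not pass the test between the groups. Esr1 (ENSMUSG00000019768.16, chromosome 10, 4611989 to 5005633 in GRCm38.p6) stood at 14.55, 13.64 and 17.41 TPM (transcripts per 1000000) in tamoxifen replicates 1 to 3, against 16.05, 6.98 and 14.32 TPM in untreated replicates 1 to 3. The groups overlap, and untreated replicate 2 is lowest. The difference was 0.34 ± 0.21 on the log2(TPM + 1) scale (limma adjusted p = 0.41, and a two-sided exact permutation test gave p = 0.5, where 3 against 3 cannot go below 0.1), and -0.00349 without untreated replicate 2. Mouse Cyp19a1 was listed at 0 in all 6 samples. The sources used here do not say whether reads of the transgene count towards this gene model.

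One library stood apart before any comparison. In untreated replicate 2, ribosomal RNA models took 31.2% of the TPM, against 0.0145% and 3.61% in the other untreated glands and 0.0818%, 3.25% and 0.0313% in the tamoxifen glands, and 14595 genes reached 1 TPM, against 16185 to 17291 in the other 5. Markers of mammary epithelium were present in every gland. The 15 pan-epithelial markers summed to 367.6, 675.5 and 277.6 TPM in tamoxifen glands and 569.6, 725.3 and 706.3 TPM in untreated glands. The 15 skeletal muscle markers summed to 31660, 22910 and 25750 TPM in tamoxifen glands and 20970, 6345 and 17610 TPM in untreated glands, so that muscle RNA was in all 6 and more of it in each tamoxifen gland. The 15 white adipocyte markers summed to 8685, 7360 and 13310 TPM and to 13120, 2177 and 6290 TPM in the same order of groups. In whole tissue, fewer cells of a type and less RNA per cell cannot be told apart.

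With tamoxifen, Akr1cl, Mmd2 and Pcp4 rose by 3.46 to 5.28 on the log2 scale, and the paracrine signals Calca, Rspo1 and Tnfsf11 fell by 2.30 to 4.11. Of 20 proliferation genes 9 fell, among them Mki67 and Cdk1, as did 2 of 20 milk and alveolar genes and 3 of 14 T and NK cell genes. Among 19325 genes tested, 299 passed at a limma adjusted p under 0.05, or 1.55%. Of these, 137 were higher with tamoxifen (0.709%) and 162 lower (0.838%), and 94 and 120 of them were protein coding. At unadjusted p under 0.05 there were 2042 higher genes (10.6%) and 1514 lower genes (7.83%). The 3 tamoxifen values lay apart from the 3 untreated values in 2775 genes (14.4%), above them in 1426 (7.38%) and below them in 1349 (6.98%). The number of calls depended on single libraries. It was 52 without untreated replicate 2 and 42 without tamoxifen replicate 3, against 1188 without untreated replicate 1, 164 without tamoxifen replicate 1 and 453 without tamoxifen replicate 2. It was 6 when only these 2 groups were fitted, in place of all 24 samples in 8 groups that share an estimate of the spread. Fold sizes below are differences of log2(TPM + 1) with the standard error of that fit.

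The genes that rose most under tamoxifen were low in untreated glands. Akr1cl, of a family of aldo-keto reductases that act on steroids among other carbonyls (chromosome 1, 65013078 to 65032759), stood at 61.77, 72.73 and 130.87 TPM in tamoxifen glands, against 6.17, 0.08 and 0.35 TPM in untreated glands. Its rise was 5.28 ± 0.72 (limma adjusted p = 0.00221). The lowest tamoxifen gland was well above the highest untreated one, where the naming rule asks only for no overlap. Akr1cl was the only member of 9 tested genes of oestrogen synthesis and inactivation that passed. Mmd2, a membrane protein of the progestin and adipoQ receptor family (chromosome 5, 142563480 to 142608936), stood at 9.08, 17.54 and 28.71 TPM in tamoxifen glands, against 0.05, 0.01 and 0.06 TPM in untreated glands. Its rise of 4.09 ± 0.28 (limma adjusted p = 8.44e-08) had the smallest p of all genes, and it passed under each of the 19 alternatives that could test it. Pcp4, a small calmodulin-binding peptide (chromosome 16, 96467606 to 96525793), stood at 16.26, 32.18 and 21.01 TPM against 1.53, 0.49 and 1.52 TPM in untreated glands, a rise of 3.46 ± 0.50 (limma adjusted p = 0.00268). All 3 genes also passed without untreated replicate 2 and without tamoxifen replicate 3. Akr1cl passed under 18 of 20 alternatives. It lost its call with only the compared groups fitted and with array weights, at a limma adjusted p of up to 0.292.

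**Figure D1:**
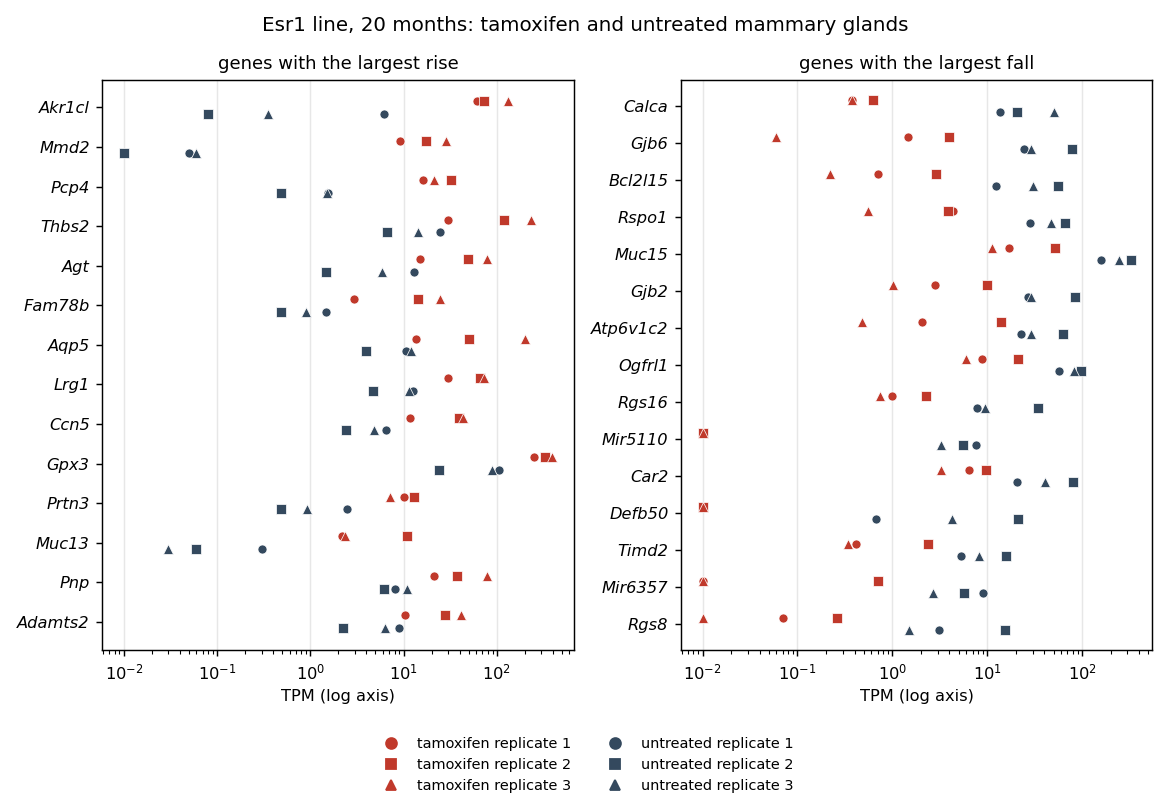
TPM on a log axis for genes with the largest rise (left) and the largest fall (right) among those that passed and the naming rule takes, 1 point per gland; tamoxifen glands are red, untreated glands dark blue, and values of 0 are drawn at 0.01. Red and dark blue points are apart in every row, since the rule asks for that, and in Akr1cl, Mmd2 and Pcp4 the gap is widest among the rising genes.

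Among the largest rises, 6 were in genes of secreted or matrix proteins, a grouping made after their values were seen. Thbs2, the matrix glycoprotein thrombospondin 2 and the only 1 of 19 collagen and matrix genes that passed, stood at 30.05, 118.24 and 233.80 TPM in tamoxifen glands and 24.67, 6.66 and 14.40 TPM in untreated glands (2.72 ± 0.52). Its lowest tamoxifen gland is close to its highest untreated gland. Agt, the precursor of angiotensins, rose by 2.70 ± 0.56, Lrg1, a secreted leucine-rich glycoprotein, by 2.44 ± 0.41, and Adamts2, which trims procollagens, by 1.95 ± 0.40. Gpx3, a secreted glutathione peroxidase, stood at 249.59, 330.00 and 392.29 TPM in tamoxifen glands, against 105.85, 24.18 and 88.08 TPM in untreated glands (2.36 ± 0.41). Ccn5, a matricellular protein that oestrogen induces in human breast cancer cells, stood at 11.62, 39.40 and 43.53 TPM against 6.53, 2.42 and 4.78 TPM in untreated glands (2.42 ± 0.47). The limma adjusted p of these 6 genes lay between 0.00791 and 0.0272. All 6 lost their call without tamoxifen replicate 3, and all but Gpx3 and Lrg1 without untreated replicate 2, with log2 differences of 1.48 to 2.26 without that untreated library.

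The remaining rises were in genes of other roles. Fam78b stood at 2.97, 14.12 and 24.65 TPM in tamoxifen glands, against 1.48, 0.49 and 0.89 TPM in untreated glands (2.60 ± 0.40). Muc13, a membrane mucin, stood at 2.21, 10.98 and 2.36 TPM against 0.30, 0.06 and 0.03 TPM in untreated glands (2.17 ± 0.34). Pnp, a purine nucleoside phosphorylase, rose by 2.15 ± 0.31, Prtn3, a serine protease of neutrophil granules, by 2.33 ± 0.36, and the water channel gene Aqp5 by 2.54 ± 0.62. Limma adjusted p-values were 0.00422, 0.00422, 0.00243, 0.00422 and 0.0486 in that order, and Aqp5 alone of these 5 lost its call without untreated replicate 2 or tamoxifen replicate 2 or 3. Of the 7 neutrophil and mast cell markers tested, 0 passed in limma and 0 had an unadjusted p under 0.05. A pair of genes outside the naming rule, chosen after their values were seen, also had small p-values. Flrt1, an adhesion molecule, stood at 2.98, 3.07 and 3.65 TPM against 0.51, 0.22 and 0.81 TPM in untreated glands (1.50 ± 0.15, limma adjusted p = 1.92e-05). Tgm2, a transglutaminase, stood at 102.62, 177.57 and 275.88 TPM against 59.60, 33.64 and 53.04 TPM in untreated glands (1.83 ± 0.26, limma adjusted p = 0.00221).

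The 250 bases before the RefSeq start of Akr1cl and Pcp4 are shown because these genes had rises among the largest and their windows hold 1 arm of an oestrogen response element, the palindrome to which the receptor binds as a dimer. Capitals mark GGTCA or its reverse complement TGACC, the windows are from RefSeq in GRCm38.p6, and they lie at chr1:65032760-65033009, minus strand, and chr16:96467356-96467605, plus strand.
Akr1cl: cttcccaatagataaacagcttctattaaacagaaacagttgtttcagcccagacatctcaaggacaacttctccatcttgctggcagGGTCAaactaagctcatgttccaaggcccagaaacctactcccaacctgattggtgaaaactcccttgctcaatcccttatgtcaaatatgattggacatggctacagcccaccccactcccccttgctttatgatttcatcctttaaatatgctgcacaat
Pcp4: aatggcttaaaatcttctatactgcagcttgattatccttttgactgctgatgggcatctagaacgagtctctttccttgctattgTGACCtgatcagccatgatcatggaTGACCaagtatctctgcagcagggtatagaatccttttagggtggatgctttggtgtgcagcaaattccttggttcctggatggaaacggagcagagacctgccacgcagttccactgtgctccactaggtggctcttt
The full element, searched as GGTCANNNTGACC on both strands, was in 0 of the 83 matched windows of genes that rose and 0 of the 106 of genes that fell, and in 0.0639% of all 32851 windows. The single arm GGTCA, which is part of the full element, was in 38.6% of the windows of genes that rose, 34.9% of those that fell and 35.2% of all windows, so its share was close to the background in both. A match of letters is a description and not a binding site. The window of Mmd2, at chr5:142608753-142609002, minus strand, holds no arm. It lies partly inside the gene span given above, unlike the windows of Akr1cl and Pcp4.

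Some genes that progesterone and oestrogen control in the gland were among the largest falls, though their list held calls in both directions. Of 20 tested members of the oestrogen and progesterone response list, 3 were lower and 1, Ccn5, higher, while 5 were lower and 7 higher at unadjusted p under 0.05 and 11 of the 20 had a difference above 0. At that unadjusted p, 7.83% of all genes were lower and 10.6% higher, and 56.6% had a difference above 0. The list median was 0.18 beside 0.05 over all genes tested, and it turned to -0.06 without untreated replicate 2, beside -0.12 over all genes. Calca, which encodes calcitonin and its gene-related peptide (chromosome 7, 114625981 to 114636910), stood at 0.38, 0.63 and 0.38 TPM in tamoxifen glands, against 13.56, 20.61 and 50.09 TPM in untreated glands (-4.11 ± 0.96, limma adjusted p = 0.0407). Rspo1, the Wnt agonist R-spondin 1 (chromosome 4, 124986401 to 125009102), stood at 4.35, 3.87 and 0.56 TPM against 27.95, 65.47 and 46.45 TPM in untreated glands (-3.71 ± 0.75, limma adjusted p = 0.0249). Tnfsf11, the RANK ligand (chromosome 14, 78277446 to 78308043), stood at 0.11, 0.22 and 0.04 TPM against 2.19, 5.14 and 7.55 TPM in untreated glands (-2.30 ± 0.56, limma adjusted p = 0.0471). In each of the 3 the highest tamoxifen gland was below the lowest untreated gland, which the naming rule asks of Calca and Rspo1. Each lost its call without untreated replicate 2 or tamoxifen replicate 3, with limma adjusted p of 0.0963 to 0.171, and Calca and Tnfsf11 also without tamoxifen replicate 1 or 2 or untreated replicate 3. Rspo1 alone of 14 tested Wnt pathway genes passed.

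The markers of hormone-sensing luminal cells did not pass. Of 13 tested, 0 passed in limma, and 7 were higher at unadjusted p under 0.05, against 10.6% of all genes. In 6 of the 13 the tamoxifen glands lay above the untreated glands without overlap, against 7.38% of all genes. The list median was 0.68, beside 0.05 over all genes tested. Pgr, the progesterone receptor and a target of oestrogen receptor, stood at 9.20, 10.08 and 8.48 TPM in tamoxifen glands, against 4.73, 1.33 and 5.23 TPM in untreated glands (1.23 ± 0.39, limma adjusted p = 0.108). The values of Tspan8 and Prom1, surface proteins of these cells, differed by 0.90 ± 0.29 and 0.90 ± 0.31 (limma adjusted p = 0.113 and 0.128). The lowest value of all 3 genes was in untreated replicate 2. Without that library the list median was 0.24 with 0 calls, Pgr differed by 0.78 and Tspan8 by 0.36. The list median was 0.42 without tamoxifen replicate 2, and 4 members passed without untreated replicate 1 or after median-ratio scaling.

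**Figure D2:**
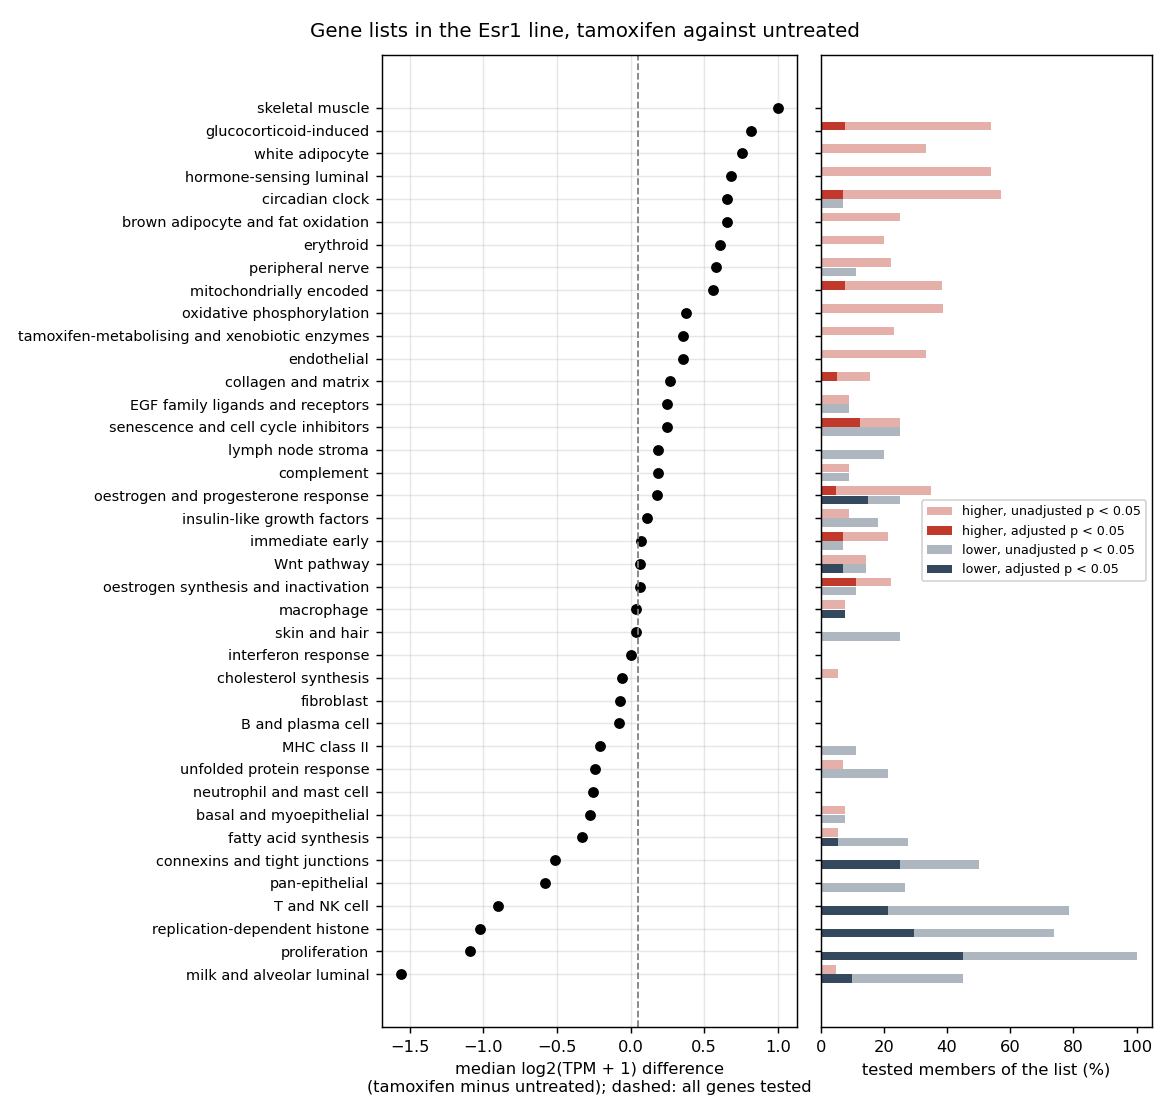
Left, the median log2(TPM + 1) difference, tamoxifen minus untreated, over the tested members of each of 38 gene lists and of the histone family that was added after values were seen, with the median of all 19325 genes as a dashed line at 0.05. Right, the percent of tested members of each list that were higher (red, upper bar) or lower (dark blue, lower bar) at unadjusted p under 0.05 in pale and at adjusted p under 0.05 in full colour. The proliferation, histone, T and NK cell and milk lists lie lowest, and all 20 proliferation genes carry an unadjusted p under 0.05.

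Alveolar genes had a low list median that depended on tamoxifen replicate 3. Of 20 tested milk and alveolar luminal genes 2 passed, both lower, and the list median was -1.56, or -0.84 without tamoxifen replicate 3. The members did not all move 1 way, as 13 had a difference below 0 and 7 above it. Over all genes 43.4% were below 0. At unadjusted p under 0.05, 9 were lower and 1 higher, against 7.83% and 10.6% of all genes. Muc15, a mucin of milk fat globules (chromosome 2, 110721494 to 110739537), stood at 17.00, 51.68 and 11.23 TPM in tamoxifen glands, against 156.75, 327.74 and 242.03 TPM in untreated glands (-3.36 ± 0.74, limma adjusted p = 0.0326). Stat5a, which carries the prolactin signal to milk genes, stood at 14.77, 16.85 and 12.48 TPM against 29.49, 59.27 and 42.06 TPM in untreated glands (-1.46 ± 0.31, limma adjusted p = 0.0274). The caseins varied widely within a group and none passed. Csn2, beta-casein, stood at 105.27, 1234.98 and 4.98 TPM in tamoxifen glands, against 2674.26, 13221.14 and 3204.66 TPM in untreated glands (-5.71 ± 2.12, limma adjusted p = 0.162). Elf5, the transcription factor of the alveolar lineage, stood at 19.27, 54.10 and 14.34 TPM against 66.48, 136.08 and 73.32 TPM in untreated glands (-1.78 ± 0.59, limma adjusted p = 0.121). The groups do not overlap in either gene, and tamoxifen replicate 2 is the highest treated gland in both. The milk list summed to 1659, 8003 and 886.8 TPM in tamoxifen glands and 9841, 43930 and 10400 TPM in untreated glands. Without untreated replicate 2 or tamoxifen replicate 1 or 3, 0 milk genes passed in limma.

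Channel, acid-base and signalling genes made up the other large falls. Gjb6 and Gjb2 are gap junction connexins that neighbour each other on chromosome 14, and they were the 2 of 8 tested connexin and tight junction genes that passed. Gjb6 stood at 1.47, 3.99 and 0.06 TPM in tamoxifen glands, against 24.24, 77.85 and 29.14 TPM in untreated glands (-4.06 ± 0.80, limma adjusted p = 0.0215). Gjb2 stood at 2.84, 9.90 and 1.01 TPM against 26.86, 84.71 and 28.77 TPM in untreated glands (-3.24 ± 0.74, limma adjusted p = 0.0386). Both genes have the same order of glands within each group, with replicate 2 highest, and both lost their calls without untreated replicate 2 or tamoxifen replicate 3. Atp6v1c2, a proton pump subunit, fell by 3.13 ± 0.62, and Car2, a carbonic anhydrase, by 2.58 ± 0.57. Rgs16 and Rgs8, which shorten G protein signals, fell by 2.72 ± 0.45 and 2.32 ± 0.43. Bcl2l15, of the BCL2 family, fell by 3.85 ± 0.77, Ogfrl1, a gene like the opioid growth factor receptor, by 2.77 ± 0.52, and Timd2, a cell surface receptor, by 2.41 ± 0.46. The 7 genes in these 3 sentences had limma adjusted p-values between 0.00785 and 0.0334, and of them only Rgs16 and Rgs8 passed without untreated replicate 2, and only Rgs16 also without tamoxifen replicate 3. Defb50, a defensin gene, was listed at 0 in all 3 tamoxifen glands, against 0.67, 21.00 and 4.25 TPM in untreated glands. It passed under 7 of the 18 alternatives that could test it. Its call was lost without any 1 tamoxifen gland and without untreated replicate 2 or 3. Without untreated replicate 2 it differed by -1.57 (limma adjusted p = 0.109). The small RNA genes Mir5110 and Mir6357 also passed as lower, with 0 TPM in 3 and in 2 tamoxifen glands, and are uncertain because a short gene model turns few reads into a high TPM.

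Proliferation genes were lower with tamoxifen as a group. All 20 members tested had a log2 difference below 0, against 43.4% of all genes, and in all 20 the 3 tamoxifen glands lay below the 3 untreated glands, against 6.98% of all genes. All 20 had an unadjusted p under 0.05 and 9 passed in limma, and the list median was -1.09. Mki67, the marker of cycling cells (chromosome 7, 135689784 to 135716450), stood at 1.52, 3.98 and 1.22 TPM in tamoxifen glands, against 10.97, 12.68 and 10.28 TPM in untreated glands (-2.02 ± 0.40, limma adjusted p = 0.0215). Cdk1, the kinase that starts mitosis (chromosome 10, 69335146 to 69352912), stood at 0.80, 2.07 and 0.63 TPM against 4.36, 5.49 and 5.17 TPM in untreated glands (-1.53 ± 0.30, limma adjusted p = 0.0215). Tamoxifen replicate 2 was the highest treated gland in both genes, and the 3 untreated glands were close together. Ccna2, cyclin A2, fell by 1.46 ± 0.30, Birc5, survivin, by 1.33 ± 0.28, and Top2a, the topoisomerase that untangles replicated DNA, by 1.60 ± 0.39. Kif11, Hmmr, Cenpf and Bub1, which act at the mitotic spindle or kinetochore, fell by 0.98 to 1.18. Those 9 genes had limma adjusted p-values of 0.0215 to 0.044. The 20 genes summed to 43.84, 76.15 and 45.80 TPM in tamoxifen glands and 133.8, 131.6 and 132.9 TPM in untreated glands. Untreated replicate 2, which stood apart in its ribosomal RNA, did not stand apart in this sum of TPM as deposited. TPM is a share of all models, however. Without ribosomal, 7SL, 7SK and mitochondrial models, 47.7%, 34.7% and 41.8% of it remained in untreated replicates 1 to 3. The likeness of the untreated sums therefore does not carry over to a total without those models.

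The count of 9 depended on the libraries more than the sizes did. It was 0 without untreated replicate 2, 0 without tamoxifen replicate 3 and 1 without tamoxifen replicate 1, while the list median was -1.01, -1.0 and -1.03. It was 20 after median-ratio scaling and 18 after the ribosomal, 7SL, 7SK and mitochondrial models were left out of the total, with medians of -1.17 and -1.46. With only the compared groups fitted it was 0, and with array weights 0, with medians of -1.09 and -1.06. A pseudocount of 0.1 gave 6 and a pseudocount of 5 gave 5, with medians of -1.79 and -0.48. The pan-epithelial sums given above were also lower with tamoxifen, apart from tamoxifen replicate 2 at 675.5 TPM, which lay above untreated replicate 1 at 569.6 TPM. With the pan-epithelial score as a covariate 8 proliferation genes passed and the median was -0.82.

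**Figure D3:**
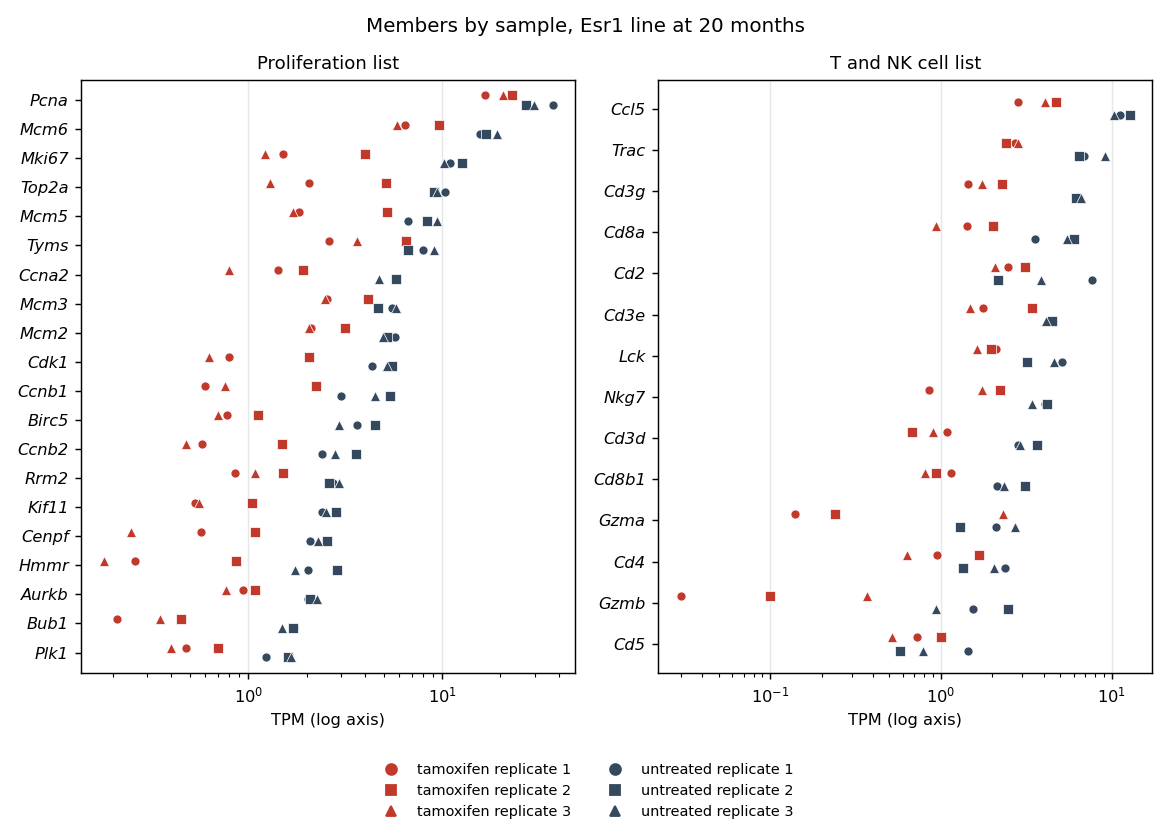
TPM on a log axis for the 20 proliferation genes (left) and the 14 tested T and NK cell genes (right), 1 point per gland, with tamoxifen glands in red and untreated glands in dark blue. In every proliferation gene the 3 tamoxifen glands lie left of the 3 untreated glands, as they do in 10 of the 14 T and NK cell genes. The same holds for 6.98% of all genes tested.

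Replication-dependent histones, which are made when DNA is copied, were looked at as a family after the values of some members were seen. Of 61 tested, 18 passed in limma, all lower, against 0.838% of all genes. At unadjusted p under 0.05, 45 were lower, against 7.83% of all genes. The family median was -1.02, beside 0.05 over all genes tested. Hist1h1a, a linker histone (chromosome 13), stood at 2.41, 5.49 and 2.73 TPM in tamoxifen glands, against 20.50, 20.07 and 17.03 TPM in untreated glands (-2.21 ± 0.35, limma adjusted p = 0.00422). Hist2h2bb, a core histone of chromosome 3, stood at 14.61, 19.48 and 13.78 TPM against 52.75, 48.12 and 50.52 TPM in untreated glands (-1.62 ± 0.27, limma adjusted p = 0.00785). The untreated glands were close together in both genes. The family has near-identical copies that can trade reads, so single members are uncertain, but the sum over the family was 514.9, 763.5 and 611.4 TPM in tamoxifen glands and 1051, 1212 and 1378 TPM in untreated glands. The number that passed was 5 without untreated replicate 2 or without tamoxifen replicate 1, 2 without tamoxifen replicate 3, and 37 after median-ratio scaling. It was 1 with only the compared groups fitted and 0 with array weights.

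The windows of Cdk1 and Hist1h1a are shown because their groups moved together and share letters. Capitals mark the CCAAT box (CCAAT or ATTGG), which the factor NF-Y binds. In Cdk1 they also mark the cell cycle genes homology region (TTTGAA or TTCAAA), through which such genes are held down for part of the cell cycle. The 250 bases before the start lie in GRCm38.p6 at chr10:69352913-69353162, minus strand, and chr13:23763418-23763667, plus strand.
Cdk1: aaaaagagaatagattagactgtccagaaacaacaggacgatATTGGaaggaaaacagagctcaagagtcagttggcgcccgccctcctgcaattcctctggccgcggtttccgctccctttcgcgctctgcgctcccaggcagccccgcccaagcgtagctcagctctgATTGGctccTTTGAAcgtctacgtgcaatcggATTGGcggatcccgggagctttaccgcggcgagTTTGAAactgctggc
Hist1h1a: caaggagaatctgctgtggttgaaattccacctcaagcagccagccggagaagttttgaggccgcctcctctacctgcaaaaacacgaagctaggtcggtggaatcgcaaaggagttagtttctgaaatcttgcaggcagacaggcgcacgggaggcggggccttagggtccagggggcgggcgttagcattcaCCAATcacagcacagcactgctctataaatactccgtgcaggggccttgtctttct
The window of Cdk1 holds 3 CCAAT boxes and 2 homology regions, which do not overlap. CCAAT was in 16 of the 18 matched proliferation windows (88.9%) and 45 of the 55 histone windows (81.8%), against 33.8% of all windows. TTTGAA was in 33.3% and 47.3% of them, against 16% of all windows. These shares describe the promoters of the lists, which hold whether or not their genes differ between glands.

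Markers of T and NK cells were lower in tamoxifen glands, while those of most other immune cells did not pass. All 14 tested T and NK cell genes had a log2 difference below 0, against 43.4% of all genes. Of them 11 were lower at unadjusted p under 0.05, against 7.83% of all genes. In limma 3 passed as lower, against 0.838% of all genes. The list median was -0.90, beside 0.05 over all genes tested. Cd3d, part of the CD3 complex of T cells, stood at 1.08, 0.68 and 0.90 TPM in tamoxifen glands, against 2.84, 3.63 and 2.91 TPM in untreated glands (-1.13 ± 0.24, limma adjusted p = 0.0269). Trac, the constant segment of the receptor alpha chain, stood at 2.71, 2.39 and 2.82 TPM against 6.88, 6.48 and 9.20 TPM in untreated glands (-1.22 ± 0.29, limma adjusted p = 0.0409). Gzmb, the cytotoxic protease granzyme B, stood at 0.03, 0.10 and 0.37 TPM against 1.55, 2.48 and 0.93 TPM in untreated glands (-1.16 ± 0.29, limma adjusted p = 0.0486). The groups were apart in all 3 genes, and their sums over the list were 19.81, 27.03 and 22.29 TPM with tamoxifen and 62.15, 58.22 and 59.77 TPM without. None of the 3 kept its call without untreated replicate 2 or tamoxifen replicate 3, at list medians of -0.98 and -1.06. Markers of lymph node stroma, which would bring T cells with a node, summed to 70.64, 753 and 9.77 TPM with tamoxifen and 623.9, 3466 and 117.9 TPM in untreated glands. Glycam1, among these 6 markers, is also on the milk and alveolar list, so the sums do not measure node stroma alone. The median of the stroma list was 0.19, and 3 of its 5 tested genes had a difference above 0. Replicate 2 was highest in both groups for the stroma and the milk sums. In the T cell sums replicate 2 was highest with tamoxifen and lowest in untreated glands. The part of lymph node tissue in the T cell result was not tested.

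Of 13 macrophage markers Cd5l, a secreted macrophage protein, alone passed. It stood at 0.14, 0.51 and 0.41 TPM in tamoxifen glands, against 2.37, 6.16 and 1.53 TPM in untreated glands (-1.55 ± 0.31, limma adjusted p = 0.0215), and lost its call without untreated replicate 2 or tamoxifen replicate 1 or 3. In limma 0 of 13 B and plasma cell genes, 0 of 9 MHC class II genes, 0 of 15 interferon response genes and 0 of 11 complement genes passed. Their counts at unadjusted p under 0.05 were 0, 1, 0 and 2. C3, the central complement protein, stood at 101.22, 144.37 and 71.59 TPM against 227.23, 251.31 and 211.77 TPM in untreated glands, without overlap (-1.17 ± 0.34, limma adjusted p = 0.0796).

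Clock and hormone-induced genes gave a few calls. Per1, a clock gene that glucocorticoids also induce, stood at 20.52, 21.83 and 27.68 TPM in tamoxifen glands, against 7.72, 5.54 and 18.31 TPM in untreated glands (1.23 ± 0.29, limma adjusted p = 0.0407). It was the 1 of 14 clock genes and of 13 glucocorticoid-induced genes that passed. At unadjusted p under 0.05, 8 and 7 genes of these lists were higher, against 10.6% of all genes. Arntl, whose transcript peaks opposite to those of the period genes, stood at 2.42, 2.69 and 1.81 TPM against 6.66, 3.72 and 3.05 TPM in untreated glands (-0.68 ± 0.26, limma adjusted p = 0.167). The sources used here do not give the time of day at necropsy. Nr4a1, an immediate early nuclear receptor, stood at 14.68, 10.01 and 15.33 TPM against 5.69, 3.40 and 6.00 TPM in untreated glands (1.26 ± 0.29, limma adjusted p = 0.0392), the only 1 of 14 immediate early genes that passed. Per1 lost its call without any 1 of the 6 glands other than untreated replicate 3, and Nr4a1 without untreated replicate 2 or tamoxifen replicate 1 or 3.

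Metabolic genes passed rarely. Fads1, a fatty acid desaturase, stood at 20.69, 35.39 and 20.56 TPM in tamoxifen glands, against 43.40, 58.46 and 50.47 TPM in untreated glands (-1.0 ± 0.22, limma adjusted p = 0.0275), the 1 of 18 fatty acid synthesis genes that passed, and it did not pass without untreated replicate 2 or tamoxifen replicate 1 or 3. Of 13 mitochondrially encoded genes mt-Atp6 alone passed, at 2383.67, 1760.66 and 1519.68 TPM against 627.10, 534.41 and 1461.99 TPM in untreated glands (1.23 ± 0.29, limma adjusted p = 0.0404), and it can trade reads with nuclear copies of mitochondrial DNA. It lost its call without untreated replicate 1 or 2 or tamoxifen replicate 1 or 3. All 13 of these genes and all 18 tested genes of oxidative phosphorylation had a difference above 0, as did 56.6% of all genes. Of the 18, 0 passed in limma and 7 were higher at unadjusted p under 0.05, against 10.6% of all genes. All 15 skeletal muscle genes were likewise above 0, with a median of 1.0 (0.49 without untreated replicate 2) and 0 that passed in limma or at unadjusted p under 0.05. Without untreated replicate 2 the median was 0.16 for the mitochondrially encoded genes and 0.14 for oxidative phosphorylation, beside 0.56 and 0.38 with it. The muscle and mitochondrial sums were lowest in untreated replicate 2, which gave 6345 and 12350 TPM. With the muscle score as a covariate 1122 genes passed, 331 higher and 791 lower, so that 29.5% of calls were higher, beside 45.8% as reported.

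In a further 15 lists 0 members passed in limma. Their medians were 0.76 for white adipocyte genes, 0.65 for brown adipocyte genes, 0.61 for erythroid, 0.58 for nerve, 0.36 for xenobiotic enzymes, 0.35 for endothelium, 0.25 for EGF family, 0.19 for lymph node stroma, 0.11 for insulin-like growth factor, 0.03 for skin, -0.06 for cholesterol synthesis, -0.07 for fibroblast, -0.24 for unfolded protein response, -0.28 for basal and -0.58 for pan-epithelial genes. Without untreated replicate 2, where the median of all genes was -0.12, they were 0.26 for white adipocyte, 0.28 for brown adipocyte, 0.48 for erythroid, 0.16 for nerve, -0.07 for xenobiotic, 0.05 for endothelial and 0.01 for EGF family genes, and between -0.57 and -0.10 for the other 8 lists. The white adipocyte median was 1.44 with 4 calls without untreated replicate 1. In the same setting, calls were also made for 2 xenobiotic enzymes and for 1 gene each of the brown adipocyte, nerve, endothelial and insulin-like growth factor lists, all higher, and for 1 gene each of the lymph node stroma and insulin-like growth factor lists, both lower. With all glands, between 0 and 5 members of each of these lists were higher, and between 0 and 4 lower, at unadjusted p under 0.05. Oxtr, the oxytocin receptor of myoepithelial cells, stood at 49.03, 88.86 and 171.33 TPM in tamoxifen glands, against 21.89, 16.06 and 24.44 TPM in untreated glands, without overlap (2.10 ± 0.58, limma adjusted p = 0.0679). Most of its list went the other way, as 10 of the 13 tested basal genes had a difference below 0 and 3 above it. At unadjusted p under 0.05, 1 basal gene was higher and 1 lower. Ehf, an epithelial transcription factor, stood at 25.64, 52.21 and 13.21 TPM against 84.33, 104.87 and 93.48 TPM in untreated glands (-1.80 ± 0.58, limma adjusted p = 0.114). Among the xenobiotic enzymes Nqo1, a quinone reductase, differed by 0.79 ± 0.23 (limma adjusted p = 0.081), or by 0.40 without untreated replicate 2.

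The same drug in the CYP19A1 line gave values that could be set beside these. A test of the difference between the lines in the effect of tamoxifen, Esr1 minus CYP19A1, called 0 of 19325 genes in limma (0%), with 866 higher (4.48%) and 1155 lower (5.98%) at unadjusted p under 0.05. Akr1cl averaged 166 ± 21.0 TPM (SD, n = 3) in tamoxifen glands and 2.25 ± 0.93 TPM (n = 3) in untreated glands of the CYP19A1 line, a difference of 5.71 ± 0.72 there. Mmd2 averaged 35.4 ± 5.93 TPM in tamoxifen and 0.78 ± 0.35 TPM in untreated glands of that line (4.36 ± 0.28). Beside the rises in the Esr1 line, Fam78b, Pnp, Adamts2, Thbs2 and Aqp5 differed by 2.55 ± 0.40, 1.83 ± 0.31, 1.96 ± 0.40, 2.44 ± 0.52 and 2.76 ± 0.62 in the CYP19A1 line. The difference between the lines lay between -0.44 and 0.32 for these 7 genes, with standard errors of 0.40 to 1.02.

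Other genes had a larger value in the Esr1 line. Pcp4 averaged 10.3 ± 3.21 TPM in tamoxifen and 4.91 ± 0.37 TPM in untreated CYP19A1 glands (0.90 ± 0.50), so that the lines differed by 2.56 ± 0.71 (limma adjusted p = 0.301). Muc13 differed between the lines by 1.90 ± 0.48 (limma adjusted p = 0.276) and Ccn5 by 2.12 ± 0.67. Genes that fell in the Esr1 line had values nearer to 0 in the other line, where Gjb6, Rspo1, Calca, Muc15, Mki67 and Cd3d differed by -0.15 ± 0.80, -0.24 ± 0.75, -0.02 ± 0.96, 0.34 ± 0.74, 0.00 ± 0.40 and 0.44 ± 0.24. The lines differed in these 6 by -4.09 to -1.57 with limma adjusted p of 0.201 to 0.349, so that none passed. Apoc1, an apolipoprotein gene, came near the threshold in this test. It stood at 16.63, 29.21 and 29.12 TPM in tamoxifen and 47.54, 59.15 and 55.03 TPM in untreated Esr1 glands, and the lines differed by -1.77 ± 0.31 (limma adjusted p = 0.0759). The proliferation sums in the CYP19A1 line were 58.66, 52.78 and 69.51 TPM with tamoxifen and 64.64, 60.27 and 45.20 TPM without, all below the 131.6 TPM of the lowest untreated Esr1 gland at 20 months. Gjb6 was already at 0.22 ± 0.23 TPM, and Rspo1 at 2.63 ± 0.96 TPM, in untreated CYP19A1 glands.

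In untreated Esr1 glands of 18 months the proliferation sums were 89.02, 109.8 and 182.1 TPM and the T and NK cell sums 35.83, 65.15 and 59.87 TPM, all above the sums of the 3 tamoxifen glands of 20 months, of which the highest were 76.15 and 27.03 TPM. At 18 months Mmd2 averaged 0.060 ± 0.035 TPM and Gjb6 30.3 ± 25.7 TPM. Age, induction time and the PLA tag all differ between the 18-month and the 20-month glands.

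**Figure D4:**
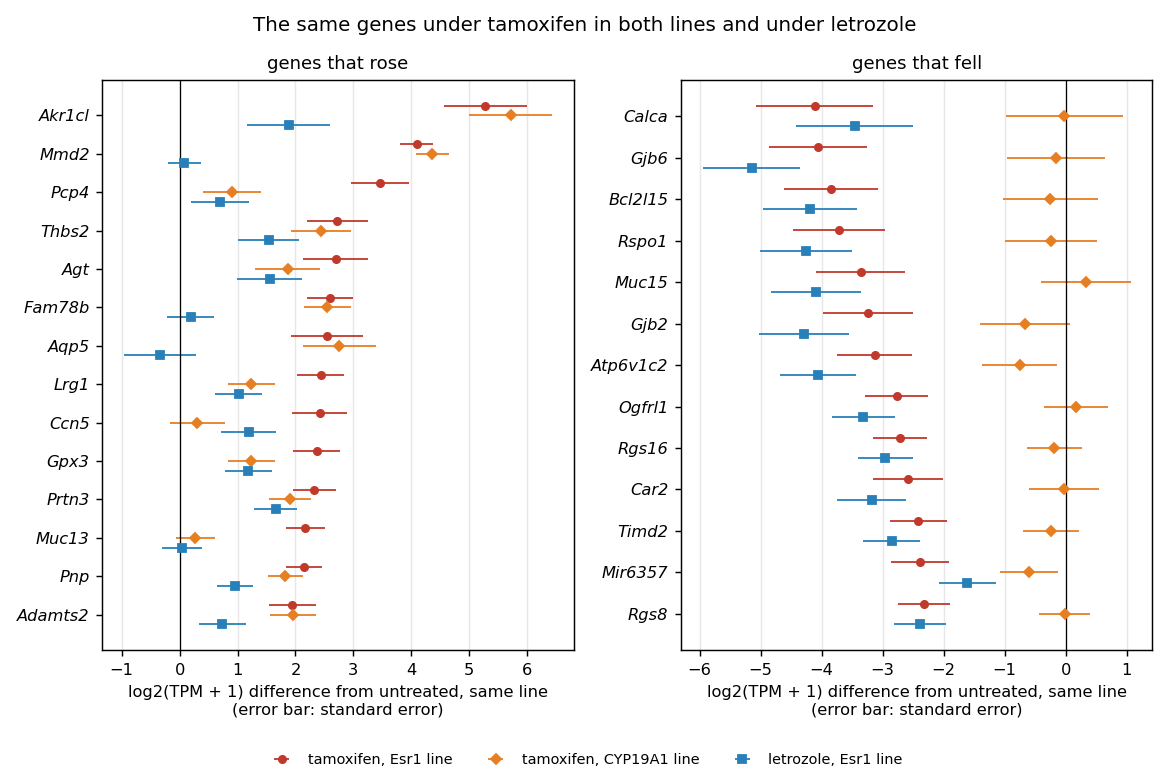
Differences of log2(TPM + 1) from untreated glands of the same line at 20 months, with bars of 1 standard error, for the genes of the largest rises (left) and falls (right); genes listed at 0 in all tamoxifen glands are left out. Red circles are tamoxifen in the Esr1 line, orange diamonds tamoxifen in the CYP19A1 line and blue squares letrozole in the Esr1 line. Orange lies near red for Akr1cl, Mmd2, Fam78b and Aqp5 but near 0 for nearly all genes on the right, where blue lies near red.

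Letrozole in the Esr1 line was set against the same 3 untreated glands, so its values share their chance variation with those of tamoxifen. With letrozole the values against untreated glands were -5.15 for Gjb6, -4.26 for Rspo1, -3.46 for Calca, -4.09 for Muc15, -2.29 for Tnfsf11, -2.22 for Mki67 and -1.07 for Cd3d. The proliferation sums were 43.84, 76.15 and 45.80 TPM with tamoxifen and 50.47, 41.79 and 48.31 TPM with letrozole, and overlap. For the genes that rose under tamoxifen, letrozole gave 0.08 for Mmd2, 0.19 for Fam78b, -0.34 for Aqp5, 0.04 for Muc13 and 1.88 for Akr1cl.

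Tamoxifen and letrozole were also tested against each other, where 25 of 19325 genes passed in limma (0.129%), 19 higher (0.0983%) and 6 lower (0.031%) with tamoxifen, and 1144 (5.92%) and 331 (1.71%) at unadjusted p under 0.05, where 1475 passed in all (7.63%). Mmd2 stood at 9.08, 17.54 and 28.71 TPM with tamoxifen and 0.12, 0.10 and 0.08 TPM with letrozole (4.01 ± 0.28, limma adjusted p = 1.22e-07). Pcp4 stood at 16.26, 32.18 and 21.01 TPM with tamoxifen and 3.03, 1.86 and 2.49 TPM with letrozole (2.76 ± 0.50, limma adjusted p = 0.0251). No tamoxifen gland came near a letrozole gland in either gene. Fam78b was higher by 2.41 ± 0.40, Muc13 by 2.13 ± 0.34, Slc44a4, a choline transporter-like protein, by 1.82 ± 0.25 and Plppr3, a membrane protein of axons, by 1.69 ± 0.23. Mtss1l, which shapes membranes, was higher by 1.66 ± 0.29 and Foxj1, the factor that starts motile cilia, by 1.61 ± 0.26, and the 6 had limma adjusted p-values of 0.00168 to 0.0155. Akr1cl stood at 14.98, 6.09 and 3.62 TPM with letrozole, below the 61.77 TPM of the lowest tamoxifen gland, and did not pass (3.40, limma adjusted p = 0.0881). The myeloid receptor gene Cd300ld3 was lower with tamoxifen, at 0.13, 0.00 and 2.32 TPM against 5.47, 4.47 and 3.73 TPM with letrozole (-1.83 ± 0.28, limma adjusted p = 0.00528), and Cd300ld4, a gene of the same family outside the naming rule, also passed; related members of this family can trade reads. The count of 25 was 9 without tamoxifen replicate 2 or letrozole replicate 2, 14 without letrozole replicate 3, 16 without letrozole replicate 1, 62 without tamoxifen replicate 1 and 103 without tamoxifen replicate 3. Pcp4, Fam78b, Mtss1l, Foxj1 and Cd300ld3 lost their calls without tamoxifen replicate 2. Pcp4 and Fam78b lost them also without any 1 of the 3 letrozole replicates, Mtss1l without letrozole replicate 1 or 2, and Foxj1 and Muc13 without letrozole replicate 2. With only the compared groups fitted 1 gene passed, and 0 of the 25 did. Mmd2 had a limma adjusted p of 0.0517 in that setting.

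**Figure D5:**
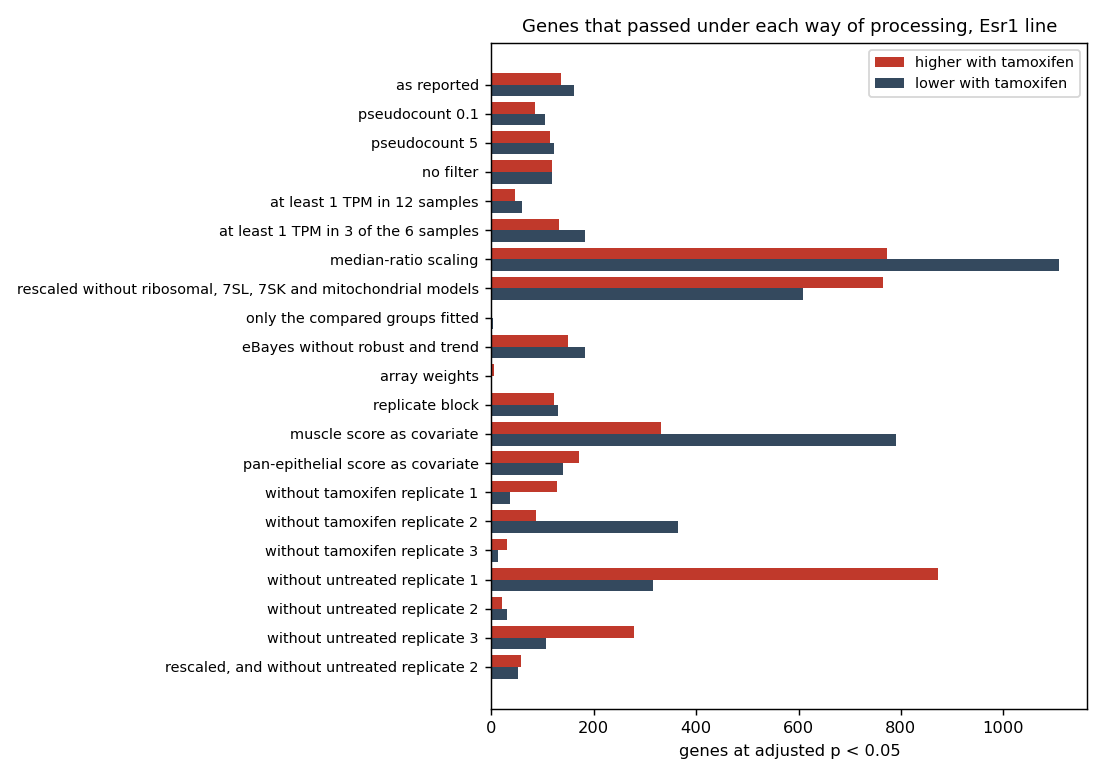
Number of genes at limma adjusted p under 0.05, higher (red) or lower (dark blue) with tamoxifen than untreated, as reported and under each of the alternatives run. The total runs from 6 with only the compared groups fitted to 1881 after median-ratio scaling, beside 299 as reported.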

How the data were processed

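RNA of whole mammary glands was sequenced, and the authors deposited 1 table of TPM per gene, which holds 55487 genes and 24 samples. Per the submitters' processing notes the tools were FastQC 0.11.9, Trim Galore 0.6.5, STAR 2.7.9a and RSEM 1.3.1 with the mm10 build, and their settings and gene annotation were not given in the sources used here. TPM is relative to the other RNA of a library and keeps no depth, so the depth behind each value is unknown and no counting interval is given.

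Samples were grouped by their labels, which name different animals as biological replicates. The 19325 genes that reached 1 TPM in 3 or more samples were kept, and log2(TPM + 1) was fitted with limma 3.58.1 in R 4.3.3, with 8 groups of 3, 16 residual degrees of freedom, and robust, trended moderation. This scale understates changes of low genes. P-values were adjusted by the Benjamini-Hochberg method over all tested genes, with a threshold of 0.05. The same fit gave the difference between lines and tamoxifen minus letrozole. The fit was first checked on simulated data.

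Named genes are up to 15 per direction with the largest difference among those that passed, without predicted genes, pseudogenes, receptor segments, genes under 2 TPM in the higher group or overlapping samples. Up to 8 per direction are named for the other comparisons, with the list members that passed and, for lists with none, up to 3 of smallest p. Of 520 members of 38 lists 518 were in the table. One gene that the rule takes, and its list's result, are not reported here. The members and lists were chosen with earlier results of these data known. Coordinates and promoter windows are from RefSeq, GRCm38.p6. Alternatives covered pseudocount, filter, scaling, samples fitted, weights, covariates, replicate block and each gland left out.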

Additional observations from a re-analysis of the deposited data

How the results depend on the processing

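Against 299 genes between tamoxifen and untreated glands, 190 passed with a pseudocount of 0.1, 106 with at least 1 TPM asked in 12 samples, 1881 after median-ratio scaling, 1374 with ribosomal, 7SL, 7SK and mitochondrial models left out of the total, 6 with only the compared groups fitted, 8 with array weights and 1122 when muscle markers entered as a covariate. Leaving out 1 gland gave 42 to 1188. Left-out models together with a left-out untreated replicate 2, an alternative added after seeing the data, gave 111. Of the genes that passed without untreated replicate 2, 41 were among the 299. The median of all genes, 0.05 as reported, was 0.15 without untreated replicate 1, 0.12 without untreated replicate 3, -0.12 without untreated replicate 2 and 0.11 with the pan-epithelial covariate. Single-gene values were tallied for genes of the naming rule with an unadjusted p under 0.05, without Esr1. Of these values, 1402 kept direction and side of the threshold, 321 lost the threshold, 57 gained it and 0 turned. Genes chosen by size or p in the same data seldom turn, so the 0 says little about stability. For Esr1 the difference lay between -0.00349, without untreated replicate 2, and 0.544, without untreated replicate 1, and passed under none of the alternatives.

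The difference between lines, with 0 calls, gave 4 with no filter, 8 after median-ratio scaling, 1 with the models left out and 0 to 6 with 1 gland left out. The 25 calls between tamoxifen and letrozole became 13 with a pseudocount of 0.1, 58 with no filter, 56 under both scalings, 1 with only the compared groups fitted and 9 to 103 with 1 gland left out. In each case the cause was not tested.

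Replicate numbers did not pair the glands in a regular way. Correlations between equal numbers were -0.059, 0.45 and -0.016, and those between unequal numbers ran from -0.359 to 0.374. The value for replicate 2 was thus the highest, while those for replicates 1 and 3 were below 0. With a replicate block 252 genes passed between tamoxifen and untreated glands, and 29 between tamoxifen and letrozole. Glands of 3 per group, with depth unknown, limit what small differences can show.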
